A study of Homo sapiens with 6 samples.

Results

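The IgLON and contactin genes examined here were NEGR1, LSAMP, NTM and OPCML (4 IgLON genes) and CNTN1 to CNTN6 (6 contactin genes). These 10 genes were taken by symbol, with 1 probe set (the array's unit for a gene) each, from 19460 probe sets that carry a single gene symbol and stand for 18417 symbols. The set was selected on the signal difference between the compound X5050 and its solvent on these arrays, in which NEGR1 and CNTN3 were higher. That difference is therefore given for the 10 genes as a description, without a test. The 6 Affymetrix arrays profiled neural stem cells, precursors that renew themselves and can form neurons and glia. All came from SA-01, a single human embryonic stem cell line, and were used at passage 14. The solvent group received DMSO at 0.1% and the treated group X5050 at 100 µM, which the series title calls an inhibitor of the transcriptional repressor REST. Both groups, of 3 arrays each, were treated from 5 h after plating on polyornithine and laminin, and RNA was taken after 24 h. The samples came from 3 independent cultures. A DMSO and an X5050 array of the same replicate number were taken to share a culture, called culture 1, 2 or 3 below.

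IgLON proteins and contactins are cell adhesion proteins of the immunoglobulin superfamily that are held in the outer leaflet of the membrane by a glycosylphosphatidylinositol (GPI) anchor, with no segment crossing the membrane. They bind one another and other surface proteins within and between cells, and are known in the nervous system for regulating neurite growth, axon guidance and the formation of synapses. IgLON proteins carry immunoglobulin domains alone, whereas contactins carry immunoglobulin and fibronectin type III domains. NEGR1 (neuronal growth regulator), LSAMP (limbic system-associated membrane protein), NTM (neurotrimin) and OPCML (opioid-binding cell adhesion molecule) are the classical IgLON proteins. Among contactins, CNTN1 and CNTN2 are best known from the contact of axons with myelin, and CNTN4 from olfactory axons.

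All values below are log2 signals, so that a difference of 1 is a doubling. A change is the X5050 value minus the DMSO value of the same culture, given as the mean and SD of the 3 cultures. The median signal of an array lay between 5.68 and 5.75. For 8 neural stem cell markers the mean signal per array was 9.49 to 9.59 with DMSO and 9.39 to 9.48 with X5050. Their DMSO means lay from percentile 53.7 (SOX1) to 99.8 (FABP7) of tested probe sets. Levels of different probe sets are not directly comparable, so such means describe brightness and do not test the cell label. Of these 8 markers 5 were lower on average and none passed the threshold of limma (adjusted p under 0.05 over all tested probe sets). The intermediate filament gene NES had a change of -0.42 (SE 0.099, limma adjusted p = 0.113), with every X5050 array below every DMSO array. The 8 measured neuronal markers averaged 8.60 to 9.05 with DMSO and 8.78 to 9.07 with X5050, and 4 of them were higher on average and 4 lower. Of the neuronal markers SNAP25, a protein of synaptic vesicle fusion, rose by 0.66 (SE 0.087, limma adjusted p = 0.0328). The vesicle calcium sensor SYT1 had a change of 0.48 (SE 0.093, limma adjusted p = 0.0733), and the X5050 arrays of both genes stood above their DMSO arrays. The 9 mesenchymal markers averaged 6.86 to 8.18 with DMSO and 6.36 to 7.63 with X5050, and 8 of 9 were lower on average. Of these LUM, a proteoglycan of the extracellular matrix, fell by 1.09 (SE 0.15, limma adjusted p = 0.0386). Neither SNAP25 nor LUM passed without the replicate block (limma adjusted p = 0.366 and 0.629) or without culture 3 (0.194 and 0.0763), and LUM did not after quantile normalization (0.0517). The part of these cell types in the changes below was not tested. In these bulk samples fewer cells of a type and less RNA per cell cannot be told apart, and no marker could be called absent because the values carry no detection measure.

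Because X5050 is described as acting on REST, the promoter windows of the genes are shown for the genes with the most separate arrays that had a window, CNTN3 and LSAMP on the higher side and OPCML on the lower side, and for NTM, the neighbour of OPCML. RefSeq windows (GRCh38.p14), reaching from 250 bases before to 50 bases after an annotated start, were matched for 9 of the 10 genes, all but NEGR1, with 17 windows in all. Where a gene had several, the outermost is printed. Capitals mark AGCACC and GGACAG, cores of the left and right parts of RE1, the element that REST binds, on either strand.
CNTN3 chr3:74614610-74614909 (- strand): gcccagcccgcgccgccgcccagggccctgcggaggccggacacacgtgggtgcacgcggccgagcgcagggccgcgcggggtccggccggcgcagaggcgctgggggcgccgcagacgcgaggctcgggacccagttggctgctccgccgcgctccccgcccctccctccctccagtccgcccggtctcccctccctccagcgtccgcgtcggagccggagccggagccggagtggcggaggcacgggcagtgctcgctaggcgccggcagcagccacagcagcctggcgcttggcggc
LSAMP chr3:116445438-116445737 (- strand): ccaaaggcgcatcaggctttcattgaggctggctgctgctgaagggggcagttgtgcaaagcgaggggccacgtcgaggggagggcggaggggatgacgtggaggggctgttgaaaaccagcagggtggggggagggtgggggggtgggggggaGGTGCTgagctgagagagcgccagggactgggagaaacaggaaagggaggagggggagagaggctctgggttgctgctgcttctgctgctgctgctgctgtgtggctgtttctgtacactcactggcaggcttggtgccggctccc
NTM chr11:131370365-131370664 (+ strand): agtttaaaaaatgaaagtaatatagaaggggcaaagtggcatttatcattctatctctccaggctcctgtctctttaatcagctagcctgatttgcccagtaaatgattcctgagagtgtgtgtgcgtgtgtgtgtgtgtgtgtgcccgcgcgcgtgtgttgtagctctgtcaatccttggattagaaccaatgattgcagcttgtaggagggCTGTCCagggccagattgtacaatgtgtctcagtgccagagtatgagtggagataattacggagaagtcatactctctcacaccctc
OPCML chr11:133532452-133532751 (- strand): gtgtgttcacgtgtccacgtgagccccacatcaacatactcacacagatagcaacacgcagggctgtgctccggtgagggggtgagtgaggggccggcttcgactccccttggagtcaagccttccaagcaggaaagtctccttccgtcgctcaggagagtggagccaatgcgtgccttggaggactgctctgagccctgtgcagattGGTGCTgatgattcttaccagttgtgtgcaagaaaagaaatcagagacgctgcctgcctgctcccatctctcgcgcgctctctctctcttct
The window of CNTN3 holds neither core. The windows of LSAMP and OPCML hold AGCACC on the opposite strand, at positions -96 and -42 from the start, and that of NTM holds GGACAG on the opposite strand at -37. Over the 17 windows AGCACC was found in 4 (of CNTN4, CNTN5, LSAMP and OPCML) and GGACAG in 3 (of CNTN2 and NTM). The CNTN2 windows with GGACAG overlap and hold the same site. The windows of NTM and OPCML that are not printed hold neither core. Of all 35116 RefSeq windows of this length, 15.9% hold AGCACC and 20.5% hold GGACAG. A match of these letters is a description of the window and does not show binding. A window without a core says nothing of sites elsewhere in or near the gene, which were not searched.

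The IgLON genes differed in direction. NEGR1 and LSAMP were higher after X5050 and NTM and OPCML lower, each in all 3 cultures. NEGR1 had signals of 6.96, 6.89 and 6.91 in cultures 1, 2 and 3 with DMSO, and of 7.80, 7.48 and 7.83 with X5050. The lowest X5050 array thus stood 0.52 above the highest DMSO array, and the 3 DMSO arrays lay within 0.073 of each other. The change of NEGR1 was 0.84, 0.59 and 0.92 in the 3 cultures, with a mean of 0.78 ± 0.17 (SD, n = 3), or 1.72-fold.

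LSAMP had signals of 9.30, 9.92 and 9.87 with DMSO and of 10.01, 10.11 and 10.08 with X5050. Here the DMSO array of culture 1 was the low one, and the groups were apart by 0.084. The change was 0.71 in culture 1 but 0.19 and 0.21 in cultures 2 and 3 (mean 0.37 ± 0.29, SD, n = 3, 1.29-fold), and without culture 1 the mean was 0.20.

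NTM had signals of 7.62, 7.60 and 7.10 with DMSO and of 7.002, 7.11 and 6.58 with X5050. Culture 3 was low in both groups, so the groups overlapped by 0.0080, while the change was much alike in the 3 cultures at -0.62, -0.49 and -0.52. Its mean of -0.54 ± 0.068 (SD, n = 3, 1.46-fold lower) had the smallest SD among the 10 genes. OPCML had signals of 6.33, 6.15 and 6.19 with DMSO and of 5.99, 5.51 and 5.31 with X5050. All its X5050 arrays were below all DMSO arrays, by 0.16, and the change ran from -0.34 in culture 1 to -0.64 and -0.88 in cultures 2 and 3 (mean -0.62 ± 0.27, SD, n = 3, 1.54-fold lower).

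IGLON5, the remaining IgLON gene and not one of the 10, had 4.83, 4.86 and 4.597 with DMSO and 4.75, 4.602 and 5.05 with X5050. Its groups overlapped and its change of 0.037 ± 0.37 (SD, n = 3) was smaller than the spread between cultures.

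**Figure D1:**
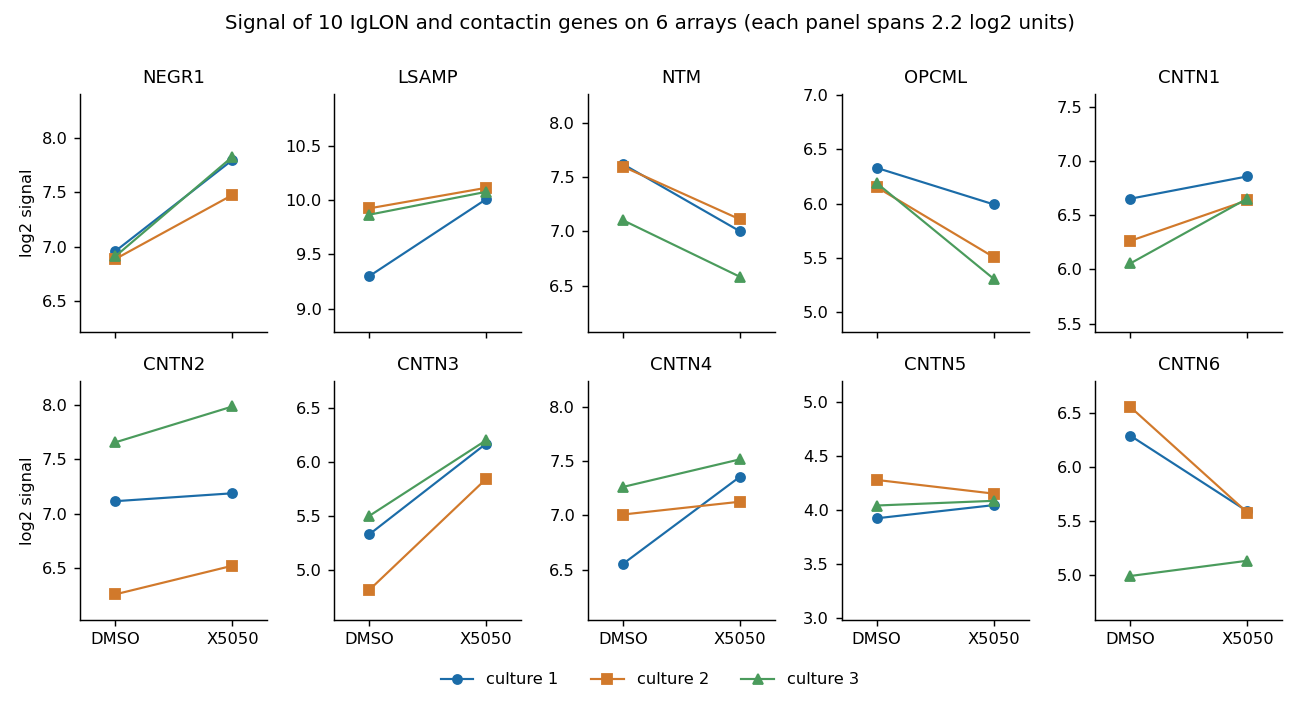
Log2 signal (vertical axis) of each IgLON and contactin gene with DMSO and X5050 (horizontal axis), with a line joining the 2 arrays of a culture and a vertical range of 2.2 log2 units in every panel. NEGR1 and CNTN3 are higher with X5050 along all 3 lines, NTM and OPCML lower along all 3, and the lines of CNTN2 stay far apart.

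Among the contactins CNTN3, an axon-associated contactin of the brain, was the highest in change. Its signals were 5.33, 4.82 and 5.50 with DMSO and 6.17, 5.84 and 6.20 with X5050. Culture 2 was the low one in both groups, and the lowest X5050 array was 0.34 above the highest DMSO array. The change was 0.84, 1.03 and 0.70, with a mean of 0.85 ± 0.16 (SD, n = 3), or 1.81-fold. The DMSO mean of CNTN3 lay toward the dim end, with 28.8% of tested probe sets below it. The DMSO array of culture 2, the culture with the largest change, stood below the lower quartile of DMSO means (4.99).

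CNTN1, which pairs with CNTNAP1 at the axon beside the node of Ranvier, had 6.65, 6.26 and 6.06 with DMSO and 6.86, 6.64 and 6.65 with X5050. It was higher in each culture, by 0.21, 0.37 and 0.60 (mean 0.39 ± 0.20, SD, n = 3, 1.31-fold), but its DMSO array of culture 1 was about level with 2 of the X5050 arrays and the groups overlapped by 0.015. CNTN4, an olfactory axon guidance molecule that binds the amyloid precursor protein, had 6.55, 7.01 and 7.26 with DMSO and 7.36, 7.13 and 7.52 with X5050. As for LSAMP, its change was larger in culture 1 (0.80) than in cultures 2 and 3 (0.12 and 0.25). The mean of 0.39 ± 0.36 (SD, n = 3, 1.31-fold) became 0.19 without culture 1.

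CNTN2, the partner of CNTNAP2 on myelinated axons, had 7.11, 6.25 and 7.66 with DMSO and 7.19, 6.52 and 7.99 with X5050. The cultures lay much further apart than the treatments, and the change within a culture was 0.073, 0.26 and 0.33 (mean 0.22 ± 0.13, SD, n = 3). CNTN5, a contactin studied in the auditory pathway, had 3.92, 4.28 and 4.04 with DMSO and 4.04, 4.15 and 4.08 with X5050. These are dim signals, below the lower quartile of DMSO means over all tested probe sets (4.99). The mean change of CNTN5 was 0.013 ± 0.13 (SD, n = 3), and its sign turned to -0.0062 with arrays centred on their medians and to -0.013 after quantile normalization.

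CNTN6, a contactin that interacts with the adhesion protein CHL1, had 6.29, 6.55 and 4.99 with DMSO and 5.59, 5.58 and 5.13 with X5050. Culture 3 was the low one with DMSO and differed in direction. Its change was -0.70 and -0.97 in cultures 1 and 2 and 0.14 in culture 3. The mean of -0.51 ± 0.58 (SD, n = 3) was smaller than its SD, and stood at -0.84 without culture 3 and -0.28 without culture 2.

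Taking the 10 genes as a list, 7 had a mean change above 0 and 3 below, with a median of 0.30, beside 52.7% above 0 and a median of 0.0092 over all 19460 probe sets. Of probe sets for genes spanning 500 kb and more, a class with 6 of the 10, 71.0% were above 0. From 100 to 500 kb, a class with 3 of the 10, it was 65.1%. A mean change of at least 0.5 in either direction was reached by 5 of the 10, and by 1.68% of all probe sets. The X5050 arrays were all above the DMSO arrays for NEGR1, LSAMP and CNTN3 (7.51% of all probe sets) and all below for OPCML (7.41%). In all 3 cultures 6 of the 10 were higher and 2 lower, against 18% and 17.5% of all probe sets. NEGR1, CNTN3 and, on the lower side, NTM were among the 97 probe sets (0.498% of 19460) with an adjusted p under 0.05 in the limma fit that pairs arrays by culture. That contrast chose the genes, so these counts describe the list and support nothing further. Without the replicate block limma called 0 of 19460 probe sets, with 1824 at an unadjusted p under 0.05. The paired fit without culture 1 called 346 probe sets (1.78%), with NEGR1, CNTN3 and OPCML among them but not NTM. Without culture 2 (81 called in all, 0.416%), and with all cultures after quantile normalization (51, 0.262%), it called NEGR1 and CNTN3 but not NTM. Without culture 3 it called 0 of all probe sets, with 1839 at an unadjusted p under 0.05.

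The mean change of NEGR1 and CNTN3 was 0.82 and the median of the other 8 genes was 0.12, a difference of 0.70. Within cultures 1, 2 and 3 this difference was 0.74, 0.81 and 0.63. The 8 genes were not alike, with changes from -0.62 for OPCML to 0.39 for CNTN1.

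**Figure D2:**
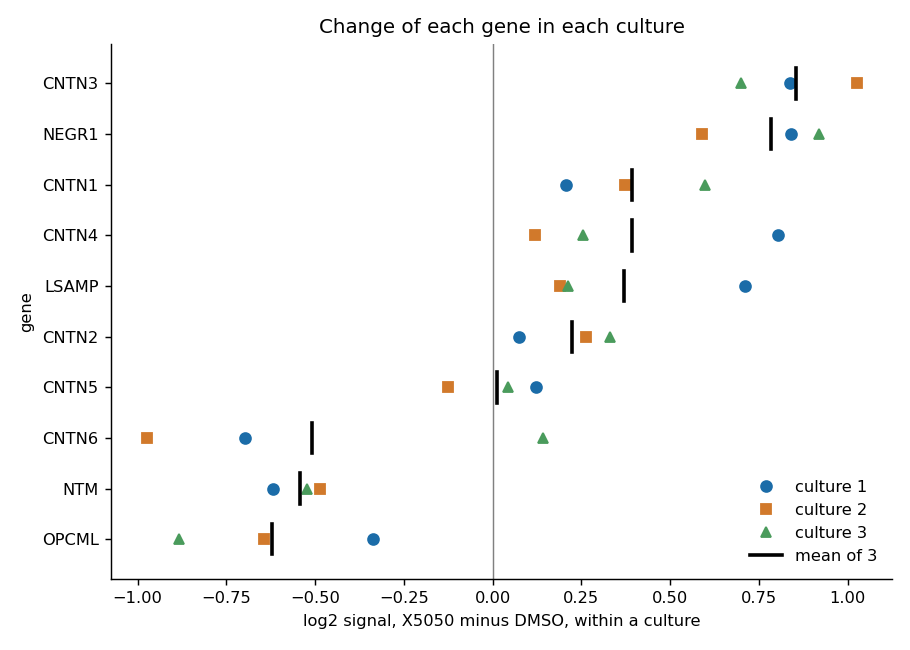
Difference in log2 signal between the X5050 and the DMSO array of a culture (horizontal axis) for each gene (vertical axis, ordered by mean), with a symbol per culture and a bar at the mean of 3. CNTN3 (mean 0.85) and NEGR1 (0.78) lie highest, OPCML (-0.62) and NTM (-0.54) lowest, and the 3 cultures of CNTN6 lie on both sides of 0.

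Differences between cultures do not enter the mean contrast that chose the genes, and could be tested. The test uses the residual variance of the same fit, so it is not wholly independent of that choice. CNTN2 differed between cultures (moderated F test of the culture term in the paired limma fit, adjusted p = 0.0023). The mean of its DMSO and X5050 arrays was 7.15, 6.39 and 7.82 in cultures 1, 2 and 3, a range of 1.44 or 2.70-fold, with the same order of cultures in both groups. CNTN2 was the 1 gene of the 10 past the threshold, which 2.93% of all probe sets passed. The next were NTM (range 0.51, adjusted p = 0.0646), CNTN6 (range 1.001, adjusted p = 0.0912) and CNTN3 (range 0.52, adjusted p = 0.104), and the remaining 6 genes had adjusted p from 0.259 to 0.598. NEGR1 had the smallest range between cultures, 0.20. For CNTN1, CNTN2, CNTN4, CNTN5 and CNTN6 the range between cultures exceeded the mean change with X5050. For the 4 IgLON genes and CNTN3 it did not. The ratio of range to change was near 1 for LSAMP (0.99), NTM (0.94), CNTN1 (1.02) and CNTN4 (1.11), and the change is what chose the genes. CNTN2 remained past the threshold without any 1 culture (adjusted p from 0.000155 to 0.0373), and CNTN6 passed too without culture 1 or without culture 2. For these fits with a culture left out, the share of all probe sets past the threshold is not given here. Markers of other cell types also differed between cultures, with 7 of the 9 mesenchymal markers, 2 of 8 neuronal and 1 of 6 astrocyte markers past the same threshold. Of neural stem cell, oligodendrocyte lineage and pluripotent markers 0 passed it. The mean signal of the 9 mesenchymal markers in cultures 1, 2 and 3 was 8.18, 6.86 and 6.90 with DMSO and 7.63, 6.36 and 6.74 with X5050. That of the astrocyte markers was 6.88, 6.63 and 7.01 with DMSO and 7.18, 6.67 and 6.96 with X5050. For the neuronal markers it was 8.60, 8.85 and 9.05 with DMSO and 8.78, 9.001 and 9.07 with X5050. The part of these other cell types in the differences of CNTN2 was not tested.

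**Figure D3:**
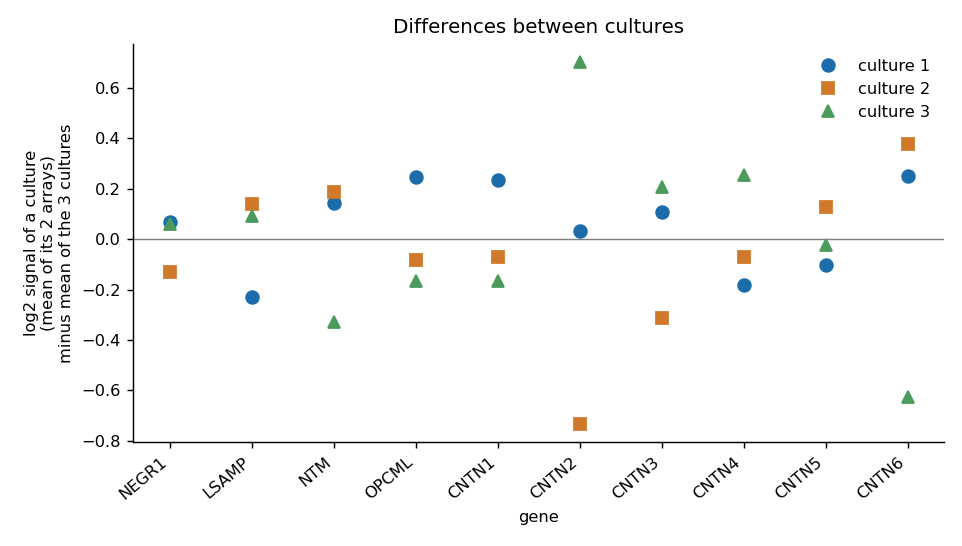
Log2 signal of each culture (mean of its DMSO and X5050 arrays) minus the mean of the 3 cultures (vertical axis) for each gene (horizontal axis). CNTN2 spans 1.44 and CNTN6 1.001 log2 units, while NEGR1 spans 0.20.

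Most IgLON and contactin genes are very long. In GRCh38.p14 CNTN5 spans 1338 kb, OPCML 1118 kb, NTM 966 kb, CNTN4 959 kb, NEGR1 887 kb and LSAMP 643 kb. CNTN1 (380.0 kb), CNTN3 (352 kb) and CNTN6 (311 kb) are shorter, and CNTN2 (35.3 kb) is the exception. Over the 19429 probe sets with a span, the median change was -0.0068 for genes under 10 kb, 0.00365 from 10 to 100 kb, 0.052 from 100 to 500 kb and 0.097 from 500 kb upward (310 probe sets). In this last class the median was 0.12, 0.082 and 0.093 in cultures 1, 2 and 3. In the paired limma fit 6 of these 310 probe sets rose (1.94%) and 1 fell (0.323%), beside 0.19% and 0.308% of all tested. This class holds 6 of the 10 genes, which were chosen on this contrast, and NEGR1 is among the probe sets that rose. Among the 292 gene symbols of 500 kb and more, NEGR1 had rank 2 from the highest change, CNTN4 rank 32, LSAMP rank 40 and CNTN5 rank 201, whereas OPCML and NTM had ranks 1 and 2 from the lowest. NTM is the 1 probe set of this class that fell. The ranks describe the contrast that chose the genes and were not tested.

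**Figure D4:**
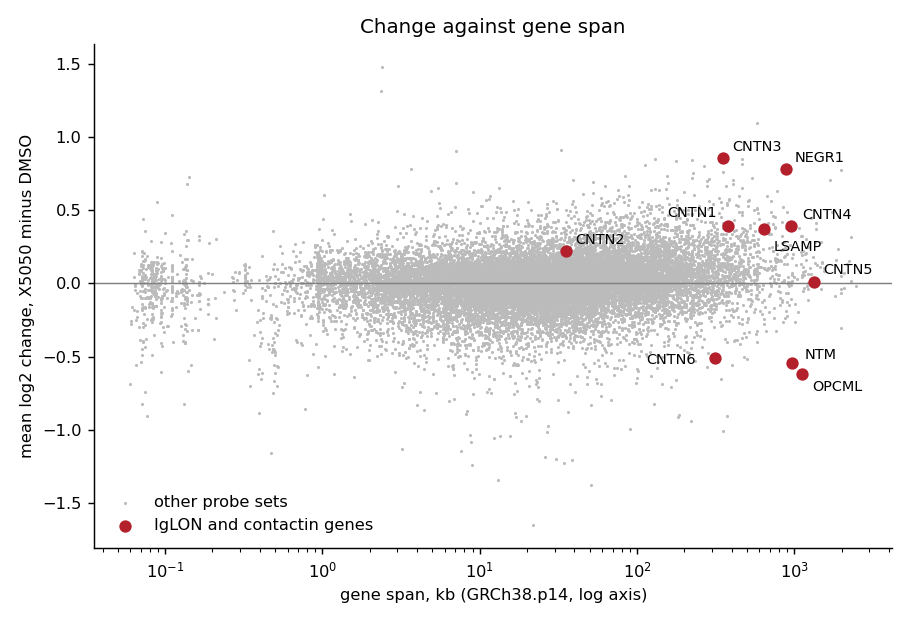
Mean log2 change (vertical axis) against gene span in kb (horizontal log axis) for all tested probe sets with a span (grey) and the IgLON and contactin genes (red). Most of the red points lie at the long end, with NEGR1 (0.78) and CNTN3 (0.85) near the top and NTM (-0.54) and OPCML (-0.62) near the bottom of genes of like span.

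Several of these genes lie side by side. NTM and OPCML are adjacent protein-coding genes on chromosome 11, and both were lower with X5050. Their outer neighbours, SNX19 beside NTM (change -0.0035, SE 0.086) and SPATA19 beside OPCML (0.062, SE 0.089), had limma adjusted p = 0.992 and 0.829. CNTN6 and CNTN4 are adjacent on chromosome 3 and had mean changes of opposite sign, -0.51 and 0.39. Their outer neighbours CHL1 (0.086, SE 0.11) and IL5RA (0.033, SE 0.093) did not pass in limma (adjusted p = 0.796 and 0.923). NEGR1 lies between ZRANB2, a splicing factor (-0.29, SE 0.10, limma adjusted p = 0.229), and LRRIQ3 (0.055, SE 0.091, adjusted p = 0.859). CNTN3 lies between PDZRN3, a ubiquitin ligase (-0.20, SE 0.094, limma adjusted p = 0.379), and FRG2C (0.22, SE 0.12, adjusted p = 0.453), which has near-identical copies elsewhere, so its signal is uncertain. None of the neighbours named here that lie outside the 10 genes passed the threshold.

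Genes related to IgLON proteins and contactins were taken in 5 lists with 64 genes, of which 59 were measured. The lists were contactin-associated proteins, the L1 family and NCAMs, partners of contactins and IgLON proteins, GPI anchor genes and synaptic adhesion genes. A place in a list, such as that of synaptic adhesion genes, does not mean that a gene acts with an IgLON protein or a contactin. In the paired limma fit 1 of the 59 rose and 0 fell, where an unadjusted p under 0.05 was reached by 11 on the higher and 3 on the lower side. Of all probe sets 0.19% and 0.308% passed the adjusted threshold in these directions, and 7.06% and 7.48% the unadjusted one. Of the 59 genes 35 were above 0 and 24 below, and their median change was 0.018.

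The gene that rose was NRXN3, a presynaptic neurexin and 1 of 25 measured synaptic adhesion genes (15 above 0, median 0.018). Its signals were 6.41, 6.03 and 7.13 with DMSO and 7.15, 6.93 and 7.60 with X5050. It was higher in each culture, by 0.74, 0.90 and 0.47, while its DMSO array of culture 3 stood above the X5050 array of culture 2. The change was 0.70 (SE 0.11, 1.63-fold, limma adjusted p = 0.0444), and adjusted p = 0.507 without the replicate block. It was also not past the threshold after quantile normalization (adjusted p = 0.0517), without culture 2 (0.0752) or without culture 3 (0.116).

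The contactin-associated proteins, transmembrane partners of contactins, had 3 of 4 measured members above 0 and a median of 0.046. None passed, and the smallest p was that of CNTNAP5 (0.49, SE 0.12, limma adjusted p = 0.120), which stood at 4.97, 5.53 and 5.29 with DMSO and at 5.73, 6.04 and 5.47 with X5050. CNTNAP4 (0.078, SE 0.090) and CNTNAP1 (-0.065, SE 0.095) followed. CNTNAP3 and CNTNAP3B were not analysed here.

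The L1 family and the NCAMs, transmembrane and anchored adhesion proteins of axons, were above 0 in 6 of 6 genes with a median of 0.16. None passed in limma. NCAM1 (0.30, SE 0.097, adjusted p = 0.195), NRCAM (0.20, SE 0.087, adjusted p = 0.346) and NCAM2 (0.18, SE 0.10, adjusted p = 0.490) had the smallest p. NCAM1 had 10.30, 10.81 and 10.84 with DMSO and 10.78, 11.05 and 11.02 with X5050, and its DMSO array of culture 1 was the low one, as for LSAMP and CNTN4.

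Of 12 measured receptors, ligands and proteases that bind or cut these proteins 8 were above 0, with a median of 0.029, and none passed in limma. The smallest p was that of ADAM10, a protease that sheds NEGR1 and other surface proteins. ADAM10 had 10.37, 10.43 and 10.32 with DMSO and 10.70, 10.67 and 10.68 with X5050 (0.31, SE 0.087, adjusted p = 0.154), with all X5050 arrays above all DMSO arrays. The contactin-binding receptor phosphatases PTPRZ1 (0.28, SE 0.087, adjusted p = 0.186) and PTPRG (0.22, SE 0.091, adjusted p = 0.305) were next, and their arrays were apart in the same direction. Genes that build, attach or remodel the GPI anchor were mostly below 0 (9 of 12, median -0.053), and none passed. PIGU (-0.35, SE 0.095, limma adjusted p = 0.148) and PIGT (-0.27, SE 0.092, adjusted p = 0.223), both subunits of the transamidase that joins the anchor to proteins, had values on the lower side, and PIGK (0.23, SE 0.086, adjusted p = 0.263), the catalytic subunit of the same enzyme, on the higher side.

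**Figure D5:**
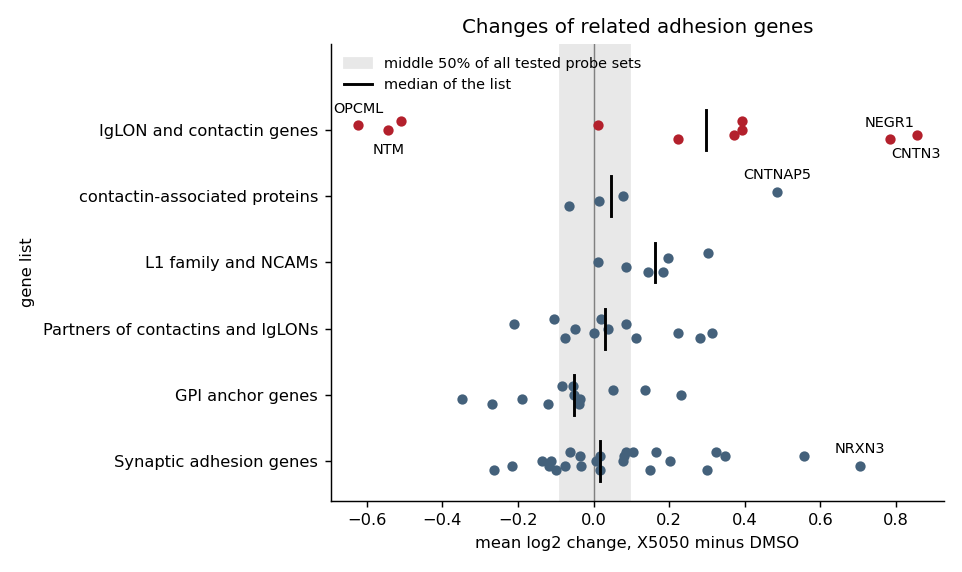
Mean log2 change (horizontal axis) of the IgLON and contactin genes (red) and of 5 lists of related genes (blue), a point per gene, with the median of each list as a bar and the middle 50% of all tested probe sets in grey. The list medians of related genes lie between -0.053 and 0.16, and NRXN3 at 0.70 is the 1 blue gene past the threshold.

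The likeness of whole profiles was measured by Pearson r over the 6 arrays, among 4784 probe sets whose SD over the arrays was at least 0.2. NEGR1 and CNTN3 had r = 0.92 with each other. The 5 probe sets most like NEGR1 were those of MPPE1 (r = 0.996), MIGA1, BNIP3, GLCE and ZNF230 (r = 0.978), with changes from 0.38 to 0.57. Those most like CNTN3 were SPRY1 (r = 0.983), DIPK2A, PENK, LPCAT1 and ZCWPW2 (r = 0.965), with changes from 0.39 to 0.66. NTM had r = 0.79 with OPCML and 0.85 with CNTN6, and r = -0.81 with NEGR1 and -0.87 with CNTN3. The 6 points of each r share the step between treatments and the 3 cultures, and were given no test.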

How the data were processed

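Total RNA of 6 samples was labelled from 100 ng and hybridised to 1 Affymetrix whole-transcript array each, according to the labels' protocols. The authors deposited a log2 signal for each probe set. RMA and Partek are named as tools by the submitters' processing notes, while for versions, settings and the genome build the answer is: not given in the sources used here. RMA tends to shrink the differences of dim probe sets. The number of arrays limits the precision.

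Of 33297 probe sets 19460 with a single gene symbol were tested, 1754 carry several symbols and 12083 are unnamed here. A symbol's brightest probe set stood for it in the lists. The treatments were compared with limma 3.58.1 (R 4.3.3, lmFit and eBayes, two-sided), with the replicate number as a block and Benjamini-Hochberg adjustment over 19460 probe sets, at adjusted p under 0.05. After subtracting group means, the 2 arrays of a number correlated at 0.365, 0.297 and 0.255, and other pairs at -0.236 to -0.052, so the numbers, which the design text ties to cultures, were taken to pair the samples. The culture term was tested by limma's moderated F test in the same fit. The fits were tested on simulated data. SEs are limma's.

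The 10 genes and the lists were chosen with earlier results of these data known. Named were the 10 genes, IGLON5, the coding neighbours of NEGR1 and CNTN3, list genes past the threshold or else the 3 with the smallest p (fewer where said), and the 5 profiles most like NEGR1 and CNTN3. The neighbours of the adjacent pairs NTM and OPCML, and CNTN6 and CNTN4, and the cell type markers were named after their values were seen. Spans (19429 probe sets matched by Entrez identifier), neighbours and promoters come from RefSeq, GRCh38.p14. Plots used Python 3.11.15 and matplotlib 3.10.9. Alternatives were no block, median centring, quantile normalization, no dim probe sets (lowest 25%), the median over the probe sets of a gene, and each culture left out.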

Additional observations from a re-analysis of the deposited data

How the results depend on the processing

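With 3 arrays per treatment, calls over all genes depended on the processing. In the paired limma fit 37 probe sets rose and 60 fell, and each alternative was called anew. The counts were 0 and 0 without the replicate block (1824 at an unadjusted p under 0.05). They were 18 and 33 after quantile normalization, and 66 and 72 without dim probe sets (14595 tested). Leaving out 1 culture gave 0 to 113 that rose and 0 to 233 that fell, with 0 in both directions without culture 3 (1839 at an unadjusted p under 0.05).

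The mean changes of the 10 genes each moved by 0.019 with arrays centred on their medians. They moved by at most 0.042 (LSAMP) after quantile normalization and 0.33 (CNTN6) with a culture left out. CNTN5 changed sign in 4 of these fits, after centring, after quantile normalization, without culture 1 and without culture 3. CNTN5 had no value without dim probe sets, and NEGR1 and CNTN3 then exceeded the median of the other genes by 0.596. The count of related genes that rose was 0 without the replicate block and 0 after quantile normalization (limma, with 8 and 13 of them on the higher side at an unadjusted p under 0.05), and 0 to 2 with a culture left out. The number of the 10 genes that differed between cultures was 1 to 2 with a culture left out, and the share over all probe sets in those fits is not given here.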
